A study of Mus musculus with 32 samples.

Results

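Whole brain tissue of control (CTL) mice was examined 1 day after ischemic stroke, with the contralateral hemisphere of each animal as the reference for its lesioned, ipsilateral hemisphere. The libraries were those of the vehicle-treated mice A2, A3, A4 and B1 in the tissue count table, 1 per hemisphere and mouse, which gave 8 of the 32 libraries of the series. The mice were wild-type C57BL/6JCrl animals, bred free of specific pathogens and young adult at the first gavage, and received the cyclodextrin vehicle without BLZ945 by oral gavage on 7 days. After 8 weeks the middle cerebral artery was occluded by a clot formed through local thrombin injection, and RNA was taken from both hemispheres 1 day later. The other 8 tissue libraries came from mice of the same strain and age, C2, C3, C4 and D1, that underwent the same stroke after 7 days of BLZ945 (200 mg per kg), an inhibitor of the receptor CSF1R that depletes brain macrophages, which had then repopulated. They shared the model with the CTL libraries and enter the results only in a comparison of both responses. The labels call the material whole brain tissue and place all tissue libraries in batch 1. They mark degraded RNA for the sorted-cell libraries of A3 and C2 from the ipsilateral hemisphere and for no tissue library.

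An occluded artery leaves a core in which neurons die and a surrounding zone of injured but living tissue. Damaged cells release signals that microglia, the macrophages of the brain parenchyma, and astrocytes sense within hours, and both switch to reactive states with secretion of cytokines and chemokines. Activated endothelium and chemokines recruit blood leukocytes, while proteases act on the vessel wall and stress proteins protect surviving cells. Bulk tissue pools the RNA of neurons, glia, vessels and leukocytes, so a lower level of a gene from fewer cells and one from less RNA per cell cannot be told apart, and the same holds for higher levels.

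The label of A3 and the column letter of its count columns disagree. The sample labels assign library 19 to the ipsilateral and library 20 to the contralateral hemisphere of A3, opposite to the letters I and C in the column names, and the labels' library numbers were followed. Of the 128 genes called higher in the ipsilateral hemisphere from A2, A4 and B1 alone, 124 were also higher in library 19 than in library 20 of A3, with a median log2 ratio of 1.11. Of the 3 genes called lower, 1 was higher in library 19. The main counts of called genes, in the lists too, are given with A3 by its library numbers and without A3, and other values with A3 unless stated. A list with 0 members called higher had 0 without A3 too, unless stated. Of 73 called genes named by rule, 17 lost the call without A3.

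Total counts ran from 11310762 to 12450565 in the 4 ipsilateral and from 9908401 to 12781505 in the 4 contralateral libraries. Expression is given as CPM, counts per 1000000 counts of the library size scaled by TMM (trimmed mean of M values), always in the order A2, A3, A4 and B1. Here 3 counts, the floor used for genes without a count, corresponded to between 0.234 and 0.309 CPM in a library. Floors and counting intervals cover counting error only, since amplified reads without molecular identifiers are not independent molecules. The tissue label fitted the markers: Camk2a, a neuronal kinase, read 2469.9, 2659, 3379.8 and 2874 ipsilaterally and 3926, 3402, 3439 and 3239 CPM contralaterally, and Slc1a2, the astrocytic glutamate transporter, read 2609, 2975, 3922 and 3015 ipsilaterally and 3725, 3525, 3511 and 3042 CPM contralaterally. Both libraries of a mouse also matched in sex-linked transcripts. Xist, which is transcribed from the inactive X chromosome, reached 292 CPM ipsilaterally and 258 CPM contralaterally in B1 and at most 0.0884 CPM in A2, A3 and A4, in which the Y-linked Ddx3y lay between 46.2 and 54.5 CPM.

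Most genes called in CTL tissue after stroke were higher in the lesioned hemisphere. Of 18968 genes tested with the mouse as a block, 178 (0.938%) were higher and 7 (0.0369%) lower in the ipsilateral hemisphere, where a gene counted as up- or downregulated at an edgeR adjusted p (Benjamini-Hochberg) under 0.05 and a log2 fold change beyond 0.59. At an unadjusted p under 0.05 the split was nearly even, with 944 genes higher and 821 lower. Of the upregulated genes, 173 were higher in all 4 mice, and in 139 every ipsilateral library lay above every contralateral one. These genes were selected on the same libraries, and neither count was made over all genes tested. The median log2 fold change of the upregulated genes was 1.24, with 112 genes above 1 and 46 above 2, whereas the median over all genes tested was -0.01. The 7 downregulated genes had a median of -0.71 and none fell by more than 1 on the log2 scale. Without A3, 128 genes (0.676%) were upregulated, 119 of them among the 178, and 3 (0.0158%) downregulated. Leaving out B1 gave the fewest upregulated genes, 111, and 4 downregulated ones. Leaving out A2 gave 151 and 3, and leaving out A4 gave 160 and 16. Without the block, that is with no pairing by mouse, 84 genes were upregulated and 0 downregulated in edgeR (404 lower at an unadjusted p under 0.05, 5 called by the paired DESeq2 test). With the hemispheres of A3 taken from the column letters, edgeR called 0 genes in either direction (429 higher and 320 lower at an unadjusted p under 0.05), while all 178 upregulated genes kept a positive log2 fold change.

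The strength of the response differed among the mice. Over the 178 upregulated genes, the median log2 ratio of ipsilateral to contralateral CPM within a mouse was 1.02 in A2, 1.14 in A3, 1.02 in A4 and 1.48 in B1. More than a doubling, a log2 ratio above 1, was reached by 91 of these genes in A2, 108 in A3, 91 in A4 and 141 in B1. The upregulated genes were selected on the same libraries, and B1 is also the only mouse with Xist, so that mouse and sex cannot be told apart.

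Where a log2 fold change of a gene is given below, its direction was the same in 4 of 4 mice unless a smaller number stands beside it, and a rise or fall is named only for called genes. Most genes were named by a rule on their values or by their lists, and some further genes were chosen after the values were seen, namely Osm, Il11, Il6, Il6st, Lcn2, Cd14, Il1b, Tnf, Cxcl1, Ccl7, Ccr2, S100a8, Csf1r, Tmem119, Lgals3, Lamp5, Col4a1, C1qa, C1qb, Trf, Fos, Npas4, Mrc1, Tagln2, Sbno2, Igfbp7, Hcar2, Gpr84 and Plin2.

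**Figure D1:**
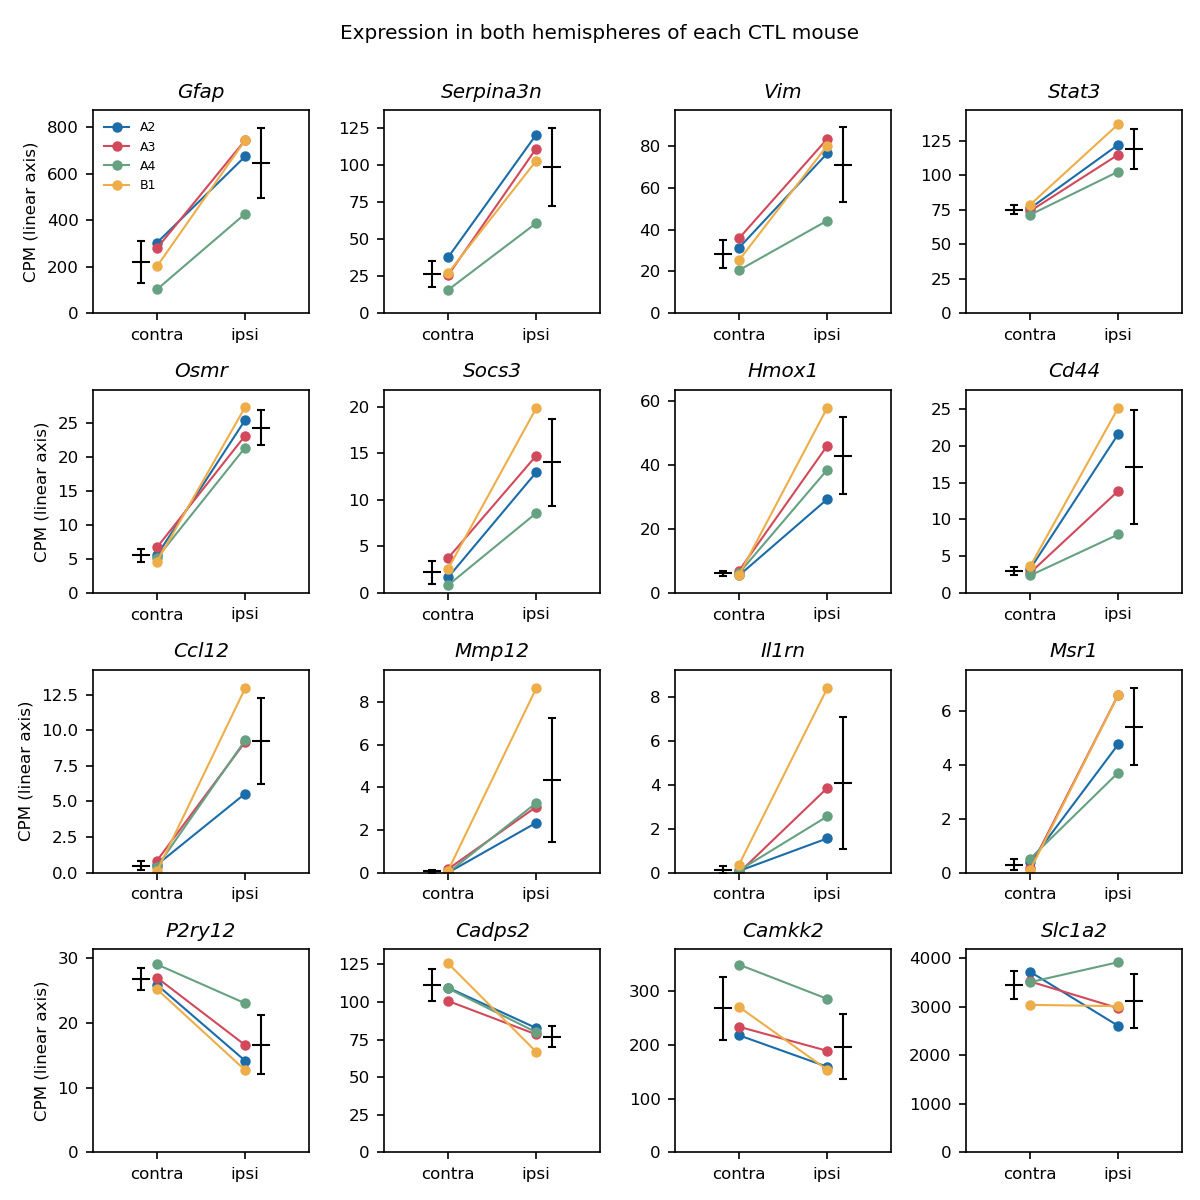
Expression of 16 genes in CPM (linear axes) in the contralateral (contra) and ipsilateral (ipsi) hemisphere of CTL mice, with 1 colored line per mouse and the mean ± SD of the 4 libraries in black beside each hemisphere. The lines rise in all 4 mice for Gfap (from 102 to 428 CPM in A4) and fall in all 4 for P2ry12 (from 25.2 to 12.7 CPM in B1).

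Reactive astrocyte genes formed the list with the largest share of induced members. The lists were chosen with earlier results of these data known, so this ranking is a description only, and bulk tissue does not show which cells hold these transcripts. Of these genes, which astrocytes switch on after injury, 19 of 26 tested members were upregulated (16 without A3 and 12 without the mouse block), with a median log2 fold change of 1.40 beside -0.01 over all genes. Gfap, the intermediate filament protein of astrocytes, read 675, 744, 428 and 744 ipsilaterally and 303, 279.6, 102 and 202 CPM contralaterally. A4 had the lowest level in both hemispheres, and its ipsilateral library still lay above every contralateral one. Gfap rose by 1.62 ± 0.12 (SE, log2 scale, edgeR adjusted p = 1.98e-07). Vim, a second intermediate filament protein, read 76.7, 83.6, 44.4 and 80.4 ipsilaterally and 31.4, 35.9, 20.6 and 25.4 CPM contralaterally, again without overlap. Vim rose by 1.32 ± 0.10 (SE, log2 scale, edgeR adjusted p = 1.98e-07). Serpina3n, a secreted inhibitor of serine proteases and the gene with the lowest p in the comparison, read 120.5, 111, 60.8 and 103 ipsilaterally and 37.7, 25.6, 15.7 and 27.01 CPM contralaterally. The rise was similar in size in the 4 mice, with log2 ratios between 1.67 in A2 and 2.11 in A3. Serpina3n rose by 1.91 ± 0.11 (SE, log2 scale, edgeR adjusted p = 7.88e-09). Cd44, the receptor for hyaluronan, read 21.6, 13.9, 7.96 and 25.2 ipsilaterally and 3.25, 2.72, 2.37 and 3.61 CPM contralaterally, and the hemispheres did not overlap although A4 rose least. Cd44 rose by 2.47 ± 0.18 (SE, log2 scale, edgeR adjusted p = 1.98e-07). Ptx3, a soluble pattern recognition protein, was near absent contralaterally and read 3.83, 5.32, 2.74 and 10.1 ipsilaterally and 0.0793, 0.340, 0.206 and 0.185 CPM contralaterally. Ptx3 rose by 4.66 ± 0.37 (SE, log2 scale, edgeR adjusted p = 4.84e-07). Lcn2, an iron-siderophore binding protein, read 2.50, 16.4, 11.8 and 14.2 ipsilaterally and 0.793, 2.89, 1.55 and 1.20 CPM contralaterally. Its ipsilateral level was much lower in A2 than in the other mice and overlapped with the contralateral library of A3. Lcn2 rose by 2.74 ± 0.25 (SE, log2 scale, edgeR adjusted p = 2.71e-06).

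Of the astrocyte identity markers, 0 of 12 tested members passed in edgeR (3 at an unadjusted p under 0.05, 0 called by DESeq2), and the median log2 fold change was -0.09. Their summed level was 4799.9, 5839, 6530.4 and 5899 ipsilaterally and 6801, 6445, 5991 and 5542 CPM contralaterally, lower ipsilaterally in A2 and A3 and higher in A4 and B1. The most abundant of them, Slc1a2, did not pass (log2 fold change -0.15 ± 0.08 (SE), edgeR adjusted p = 0.628, lower in 3 of 4 mice). The summed level of the reactive genes was 1457, 1579, 1076 and 1575 ipsilaterally and 795, 789, 559 and 692 CPM contralaterally, without overlap between the hemispheres. Gfap held the most counts of that list.

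Cytokines of the IL-6 family signal through receptors that share the subunit gp130 and activate the transcription factor STAT3. In this list 8 of 20 tested members were upregulated (5 without A3, 5 without A2, 4 without B1 and 4 without the mouse block), with a median of 0.43 (log2). Among the ligands, Lif, leukemia inhibitory factor, read 4.06, 2.06, 0.973 and 3.38 ipsilaterally and 0.396, 1.10, 0.516 and 0.555 CPM contralaterally, with overlap. Lif rose by 1.97 ± 0.38 (SE, log2 scale, edgeR adjusted p = 0.00963). Lif was not called without the mouse block (edgeR adjusted p 0.179), without A2 (0.120) or without B1 (0.0873). Osm, the ligand of the receptor encoded by Osmr, had no count in the 4 contralateral libraries and 0.547, 0, 0.442 and 1.89 CPM ipsilaterally, at least 10.8-fold above the floor of 3 counts over the 4 contralateral libraries (at least 3.74-fold without B1). It was at 0 in the ipsilateral library of A3 and had an edgeR adjusted p of 0.0453. Osm was not called without the mouse block (edgeR adjusted p 0.378), with DESeq2 (0.0798), without A2 (0.124), without A3 (0.0645), without A4 (0.0836) or without B1 (0.409). Il11, another cytokine of the family, read 1.95, 4.03, 1.59 and 4.28 ipsilaterally and 0.555, 0.595, 0.516 and 0.462 CPM contralaterally. Il11 rose by 2.40 ± 0.48 (SE, log2 scale, edgeR adjusted p = 0.0111). Il11 was not called without the mouse block (edgeR adjusted p 0.335), without A3 (0.103) or without B1 (0.0875). Il6 itself had 24 counts in all ipsilateral and 1 in all contralateral libraries and did not pass (edgeR adjusted p = 0.200).

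On the receptor side, Osmr, the specific subunit of the oncostatin M receptor, read 25.5, 23.2, 21.4 and 27.4 ipsilaterally and 5.55, 6.71, 5.16 and 4.62 CPM contralaterally. The ipsilateral libraries lay close together and far above the contralateral ones (log2 fold change 2.14 ± 0.13 (SE), edgeR adjusted p = 1.68e-08). The shared subunit Il6st read 122, 132, 118 and 143 ipsilaterally and 122, 129, 98.3 and 101 CPM contralaterally and did not pass. Il6st had a log2 fold change of 0.20 ± 0.08 (SE, edgeR adjusted p = 0.432, higher in 3 of 4 mice). Downstream, Stat3 itself read 122, 115, 103 and 137 ipsilaterally and 76.1, 74.1, 71.4 and 78.7 CPM contralaterally, a small difference without overlap. Stat3 rose by 0.66 ± 0.07 (SE, log2 scale, edgeR adjusted p = 1.43e-05). Socs3, the feedback inhibitor that STAT3 induces, read 12.96, 14.7, 8.58 and 19.9 ipsilaterally and 1.66, 3.74, 0.825 and 2.59 CPM contralaterally, with the smallest ratio in A3, whose contralateral library was the highest. Socs3 rose by 2.696 ± 0.27 (SE, log2 scale, edgeR adjusted p = 9.71e-06). Bcl3, a nuclear protein of the IκB family, read 4.84, 5.23, 2.48 and 4.53 ipsilaterally and 0.872, 0.850, 1.24 and 1.02 CPM contralaterally, higher in every mouse and least so in A4. Bcl3 rose by 2.08 ± 0.28 (SE, log2 scale, edgeR adjusted p = 2.85e-04).

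Chemokines draw leukocytes along gradients, and their list held strongly induced members beside abundant ones that did not pass. Of these genes 7 of 29 tested members were upregulated (6 without A3), with a median log2 fold change of 1.27. The CCR2 ligand Ccl12 read 5.54, 9.17, 9.29 and 12.9 ipsilaterally and 0.555, 0.850, 0.413 and 0.0925 CPM contralaterally. In B1 the contralateral level was the lowest and the ipsilateral level the highest of the 4, and no hemisphere overlapped. Ccl12 rose by 4.17 ± 0.33 (SE, log2 scale, edgeR adjusted p = 4.84e-07). Ccl2, another CCR2 ligand, read 2.19, 4.12, 2.21 and 5.93 ipsilaterally and 0.0793, 0.935, 0.309 and 0.185 CPM contralaterally. Ccl2 rose by 3.25 ± 0.42 (SE, log2 scale, edgeR adjusted p = 1.68e-04). Without A3 the rise was 4.09. Ccl4, a further chemokine, had no count in any contralateral library and read 2.73, 1.46, 3.10 and 3.54 CPM ipsilaterally, at least 40.5-fold above the floor (edgeR adjusted p = 2.84e-05). Ccl3, of the same family, read 1.41, 1.71, 1.86 and 4.70 ipsilaterally and 0.238, 0.170, 0.103 and 0.0925 CPM contralaterally, with B1 far above the other 3 mice. Ccl3 rose by 3.76 ± 0.63 (SE, log2 scale, edgeR adjusted p = 0.00256). Without B1 the rise was 3.15.

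Ccl9, a CCR1 ligand of myeloid cells, read 3.67, 5.32, 5.31 and 20.4 ipsilaterally and 1.66, 1.02, 1.03 and 1.11 CPM contralaterally, so that the ipsilateral library of B1 held several times the level of the others. Ccl9 rose by 2.57 ± 0.37 (SE, log2 scale, edgeR adjusted p = 5.18e-04). Without B1 the rise was 1.90. Cxcl10, the CXCR3 ligand induced by interferons, read 1.64, 1.89, 2.48 and 3.05 ipsilaterally and 0.0793, 0.425, 0.103 and 0 CPM contralaterally, without overlap. Cxcl10 rose by 3.76 ± 0.53 (SE, log2 scale, edgeR adjusted p = 3.96e-04). Without A3 the rise was 5.02. Ccl7 and the neutrophil attractant Cxcl1 were higher in every mouse but did not pass (edgeR adjusted p = 0.0530 for Ccl7 and 0.130 for Cxcl1). By counts the list was dominated by the neuronal chemokine Cx3cl1, which read 671, 668, 851 and 692 ipsilaterally and 748, 661, 1003 and 819.6 CPM contralaterally without passing. Cx3cl1 had a log2 fold change of -0.15 ± 0.07 (SE, edgeR adjusted p = 0.437, lower in 3 of 4 mice). Among the chemokine receptors, 0 of 15 tested members passed in edgeR (5 at an unadjusted p under 0.05, 0 called by DESeq2), with a median of 0.31 (log2), and 1 passed in edgeR without A2. Ccr2, the receptor of inflammatory monocytes, read 0.234, 0.514, 0.796 and 1.48 ipsilaterally and 0, 0.170, 0.103 and 0.0925 CPM contralaterally, at 3 counts or fewer in every contralateral library (edgeR adjusted p = 0.157).

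Interleukin-1 and tumor necrosis factor (TNF) are early cytokines of sterile inflammation. In the list of their ligands, receptors and signaling genes, 4 of 29 tested members were upregulated (3 without A3), with a median of 0.54 (log2). Il1rn, the natural antagonist of the IL-1 receptor, read 1.56, 3.86, 2.56 and 8.40 ipsilaterally and 0.0793, 0, 0.103 and 0.370 CPM contralaterally, above every contralateral library in all mice. Il1rn rose by 4.81 ± 0.42 (SE, log2 scale, edgeR adjusted p = 1.27e-06). The cytokine genes Il1b and Tnf were scarce and did not pass with all mice. Il1b read 0.0781, 0.772, 0.973 and 4.28 ipsilaterally and 0.317, 0.170, 0.206 and 0.370 CPM contralaterally, lower ipsilaterally in A2 and highest in B1 (log2 fold change 2.07 ± 0.68 (SE), edgeR adjusted p = 0.217, higher in 3 of 4 mice), and Tnf read 0.468, 0.343, 0.619 and 0.742 ipsilaterally and 0, 0.0850, 0 and 0 CPM contralaterally (edgeR adjusted p = 0.116). Without A2, Il1b was called higher (log2 fold change 2.82, edgeR adjusted p 0.0388), and without B1 it was not (1.14, 0.851). Of the TNF receptors, Tnfrsf1a, the widely expressed type 1 receptor, read 38.2, 37.04, 25.1 and 36.8 ipsilaterally and 14.3, 16.2, 13.6 and 13.04 CPM contralaterally. Tnfrsf1a rose by 1.25 ± 0.12 (SE, log2 scale, edgeR adjusted p = 3.71e-06). Tnfrsf12a, the receptor of the cytokine TWEAK, read 14.6, 13.5, 8.49 and 20.8 ipsilaterally and 6.18, 7.22, 3.82 and 6.47 CPM contralaterally. Tnfrsf12a rose by 1.25 ± 0.17 (SE, log2 scale, edgeR adjusted p = 2.62e-04). Tnfrsf1b, the type 2 receptor, rose less (log2 fold change 0.72 ± 0.16 (SE), edgeR adjusted p = 0.0238). Tnfrsf1b was not called without the mouse block (edgeR adjusted p 0.475), with DESeq2 (0.0614), without A3 (0.146) or without B1 (0.200).

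Proteases of the extracellular matrix and of clot dissolution, with their inhibitors, included some that were absent or nearly absent contralaterally. Of these genes 10 of 31 tested members were upregulated (8 without A3 and 5 without the mouse block), with a median of 0.28 (log2). Mmp3, stromelysin 1, had no count in any contralateral library and read 1.95, 2.83, 2.92 and 5.93 CPM ipsilaterally, at least 50.99-fold above the floor (at least 29.2-fold without B1, edgeR adjusted p = 1.23e-05). Mmp12, the macrophage elastase, read 2.34, 3.09, 3.27 and 8.65 ipsilaterally and 0, 0.170, 0 and 0.0925 CPM contralaterally, with 208 counts against 3 over the 4 mice, 2 of the 3 in A3. The ratio of counts per effective library size was 64.95 (exact 95% counting interval 21.9 to 318), and B1 held the highest value (edgeR adjusted p = 1.56e-06). Without A3 the ratio was 157 (27.8 to 6243). Timp1, the tissue inhibitor of metalloproteinases induced by injury, read 4.45, 3.52, 4.24 and 7.25 ipsilaterally and 0.872, 0.340, 0.309 and 0.462 CPM contralaterally. Timp1 rose by 3.22 ± 0.39 (SE, log2 scale, edgeR adjusted p = 8.04e-05).

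Tgm1, a transglutaminase that cross-links proteins, read 2.65, 16.98, 5.39 and 16.9 ipsilaterally and 0.238, 0.340, 0.309 and 0.185 CPM contralaterally. A3 and B1 were highest and A2 and A4 lower, and all 4 lay above the contralateral libraries. Tgm1 rose by 5.15 ± 0.41 (SE, log2 scale, edgeR adjusted p = 4.57e-07). Of the collagen and basement membrane genes, 1 of 31 tested members was upregulated (2 without A3, 2 without A2 and 0 without B1), with a median of 0.14 (log2). Fn1, the fibronectin of plasma and provisional matrix, read 106, 119, 119 and 133 ipsilaterally and 78.7, 80.8, 74.4 and 60.9 CPM contralaterally, without overlap (log2 fold change 0.70 ± 0.11 (SE), edgeR adjusted p = 0.00193), and fell short of the fold change threshold without B1 (log2 fold change 0.55 without B1). Col4a1, the main collagen of vessel basement membranes, was higher in every mouse with a log2 fold change of 0.56 ± 0.11 (SE), below the threshold of 0.59. Its edgeR adjusted p was 0.00789 (0.113 without the mouse block).

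Enzymes against heme, oxidants and free metal showed a single large change. In the list of heme, NRF2 and metallothionein genes 2 of 26 tested members were upregulated (1 without A3 and 1 without the mouse block), with a median of 0.18 (log2). Hmox1, the inducible heme oxygenase that degrades heme, read 29.3, 45.96, 38.5 and 57.8 ipsilaterally and 5.47, 6.97, 6.19 and 5.64 CPM contralaterally. The contralateral libraries lay within 5.47 to 6.97 CPM and every ipsilateral library lay several times higher. Hmox1 rose by 2.79 ± 0.17 (SE, log2 scale, edgeR adjusted p = 1.68e-08). Mt2, a metallothionein that binds zinc, read 55.4, 79.8, 51.1 and 80.7 ipsilaterally and 49.5, 38.8, 32.2 and 23.5 CPM contralaterally. It hardly differed between the hemispheres of A2 and most in B1 (log2 fold change 0.90 ± 0.16 (SE), edgeR adjusted p = 0.00553). Mt2 was not called without the mouse block (edgeR adjusted p 0.112) or without A3 (0.0589).

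Heat shock chaperones refold damaged proteins, and 5 of 20 tested members were upregulated (5 without A3 and 0 without the mouse block), with a median of 0.17 (log2). Hspa1a, the inducible HSP70, read 30.1, 6.26, 19.2 and 12.3 ipsilaterally and 2.46, 4.33, 2.79 and 3.14 CPM contralaterally. Here A2 responded most and A3 least (log2 fold change 2.25 ± 0.40 (SE), edgeR adjusted p = 0.00383). Hspa1b, a near-identical copy with which reads can be exchanged so that the split between both genes is uncertain, read 57.5, 15.4, 40.8 and 24.5 ipsilaterally and 6.66, 9.18, 7.01 and 7.58 CPM contralaterally. Hspa1b rose by 2.05 ± 0.38 (SE, log2 scale, edgeR adjusted p = 0.00621). Hspa1b was not called without the mouse block (edgeR adjusted p 0.249) or without A2 (0.0516). Hspb1, the small heat shock protein HSP27, read 14.99, 9.26, 11.8 and 10.96 ipsilaterally and 5.07, 4.50, 4.75 and 2.59 CPM contralaterally. Hspb1 rose by 1.48 ± 0.22 (SE, log2 scale, edgeR adjusted p = 7.33e-04). Bag3, an HSP70 cochaperone, rose by less (log2 fold change 0.68 ± 0.12 (SE), edgeR adjusted p = 0.00454), as did Serpinh1, the collagen chaperone HSP47. Serpinh1 rose by 0.72 ± 0.10 (SE, log2 scale, edgeR adjusted p = 4.60e-04). Without the block the edgeR adjusted p of the chaperone genes was 0.133 for Hspa1a, 0.294 for Hspb1, 0.361 for Bag3 and 0.404 for Serpinh1.

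Other stress programs were mostly below the threshold. Of the genes of the integrated stress response and the unfolded protein response, 2 of 26 tested members were upregulated (1 without A3, 1 without A4, 1 without B1, 0 without the mouse block and 1 with DESeq2), with a median of 0.16 (log2). Atf3, a stress-induced transcription factor, read 6.48, 7.55, 7.25 and 21.3 ipsilaterally and 2.06, 5.44, 1.96 and 1.57 CPM contralaterally, highest by far in the ipsilateral library of B1. Atf3 rose by 1.85 ± 0.35 (SE, log2 scale, edgeR adjusted p = 0.00779). Atf3 was not called without the mouse block (edgeR adjusted p 0.0869). Its log2 fold change was 2.46 without A3 and 1.24 without B1. Gdf15, a stress-induced cytokine, rose from 0.176 to 1.26 CPM on average (log2 fold change 2.62 ± 0.61 (SE), edgeR adjusted p = 0.0373). Gdf15 was not called without the mouse block (edgeR adjusted p 0.201), with DESeq2 (0.0813), without A3 (0.185), without A4 (0.216) or without B1 (0.122). Of the immediate early genes, which follow neuronal activity and growth signals within minutes, 1 of 28 tested members was upregulated (1 without A3, 0 without A2, 0 without A4, 0 without B1 and 0 without the mouse block), with a median of 0.32 (log2). The member that passed was Maff, a small MAF transcription factor (log2 fold change 1.14 ± 0.26 (SE), edgeR adjusted p = 0.0343), but not in every setting. Maff was not called without the mouse block (edgeR adjusted p 0.403), without A2 (0.132), without A4 (0.0904) or without B1 (0.223). The activity-regulated genes Fos and Npas4 stood out in a single library. Fos read 13.8, 29.9, 27.1 and 129.8 ipsilaterally and 12.8, 19.6, 30.8 and 29.8 CPM contralaterally, and Npas4 read 7.03, 7.80, 19.9 and 177 ipsilaterally and 9.51, 9.01, 14.3 and 6.75 CPM contralaterally, so the ipsilateral hemisphere of B1 was high in both and neither passed (edgeR adjusted p = 0.762 for Fos and 0.700 for Npas4). Of the glycolysis and hypoxia genes, 0 of 30 tested members passed in edgeR (5 at an unadjusted p under 0.05, 0 called by DESeq2), with a median of 0.04 (log2).

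Microglia lose homeostatic genes and gain phagocyte genes when they are activated. Here most homeostatic markers did not pass. Of the homeostatic microglia markers, 0 were upregulated in edgeR, 1 was downregulated (1 without A3) of 19 tested (10 at an unadjusted p under 0.05 in either direction, 0 called higher by DESeq2), and the median was -0.08 (log2). Over all 18968 genes tested, 944 were higher and 821 lower at that unadjusted p, a smaller share than in this list. Tmem119 and Csf1r below were chosen after the values were seen and do not stand for these 10. The downregulated gene was P2ry12, the ADP receptor of resting microglia, which read 14.1, 16.5, 22.99 and 12.7 ipsilaterally and 25.8, 26.9, 28.99 and 25.2 CPM contralaterally. The fall was smallest in A4 and the hemispheres did not overlap (log2 fold change -0.72 ± 0.11 (SE), edgeR adjusted p = 0.00134). P2ry12 was not called without the mouse block (edgeR adjusted p 0.0591). Of the 19 markers, 8 had a positive log2 fold change. Tmem119, a microglial surface protein, read 23.5, 29.6, 29.2 and 26.9 ipsilaterally and 31.7, 31.02, 28.5 and 25.6 CPM contralaterally (log2 fold change -0.10 ± 0.11 (SE), edgeR adjusted p = 0.891, lower in 2 of 4 mice), and Csf1r, the receptor on which these cells depend, read 106, 124, 124 and 109.7 ipsilaterally and 117, 118, 121 and 106 CPM contralaterally. Csf1r had a log2 fold change of 0.00 ± 0.07 (SE, edgeR adjusted p = 0.999, higher in 3 of 4 mice). Cx3cr1, the receptor of Cx3cl1, was slightly higher in every mouse without passing (log2 fold change 0.17 ± 0.07 (SE), edgeR adjusted p = 0.465). The summed level of the list was 1743, 2305, 1822 and 2213 ipsilaterally and 2216, 2181, 1805 and 1883 CPM contralaterally, higher ipsilaterally in 3 of 4 mice, with Cst3, a cystatin that other brain cells also express, as its most abundant gene.

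Of the activated phagocyte genes, 22 of 45 tested members were upregulated (15 without A3, 13 without B1 and 13 without the mouse block), with a median of 0.93 (log2). Msn, moesin, which links actin to the membrane and is not restricted to phagocytes, read 81.1, 88.4, 60.5 and 91.7 ipsilaterally and 38.5, 41.1, 28.6 and 36.9 CPM contralaterally, with log2 ratios from 1.07 in A2 to 1.31 in B1. Msn rose by 1.14 ± 0.10 (SE, log2 scale, edgeR adjusted p = 1.07e-06). Msr1, a scavenger receptor, read 4.76, 6.60, 3.71 and 6.59 ipsilaterally and 0.396, 0.170, 0.516 and 0.0925 CPM contralaterally. Msr1 rose by 4.15 ± 0.41 (SE, log2 scale, edgeR adjusted p = 6.36e-06). Spp1, the secreted phosphoprotein osteopontin, read 38.3, 33.6, 13.4 and 33.2 ipsilaterally and 9.35, 14.9, 6.09 and 12.2 CPM contralaterally, and only the low ipsilateral value of A4 overlapped with the contralateral libraries. Spp1 rose by 1.47 ± 0.16 (SE, log2 scale, edgeR adjusted p = 2.77e-05). Spp1 was not called without the mouse block (edgeR adjusted p 0.473). Plek, pleckstrin of hematopoietic cells, read 28.7, 30.2, 29.8 and 37.2 ipsilaterally and 16.3, 18.2, 14.9 and 15.6 CPM contralaterally. Plek rose by 0.95 ± 0.11 (SE, log2 scale, edgeR adjusted p = 2.99e-05). Lilrb4b, an inhibitory receptor of myeloid cells, had 134 ipsilateral and 1 contralateral count, in B1, a ratio of 126 (exact 95% counting interval 22.1 to 4995), and its reads may be shared with the near-identical Lilrb4a (edgeR adjusted p = 3.09e-05). Without B1 it lay at least 25.3-fold above the floor. Cd14, the coreceptor for lipopolysaccharide, read 9.84, 19.4, 7.96 and 29.6 ipsilaterally and 2.30, 2.46, 2.58 and 2.03 CPM contralaterally (log2 fold change 2.697 ± 0.32 (SE), edgeR adjusted p = 6.66e-05), and the lectin gene Lgals3 read 5.47, 8.57, 5.39 and 9.97 ipsilaterally and 1.66, 2.29, 0.722 and 1.48 CPM contralaterally. Lgals3 rose by 2.23 ± 0.30 (SE, log2 scale, edgeR adjusted p = 2.85e-04). Lgals3 was not called without the mouse block (edgeR adjusted p 0.101).

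Cybb, the catalytic subunit of the NADPH oxidase, read 1.41, 1.46, 1.33 and 3.54 ipsilaterally and 0.317, 0.510, 0.206 and 0.555 CPM contralaterally, with B1 above the others. Cybb rose by 2.202 ± 0.38 (SE, log2 scale, edgeR adjusted p = 0.00301). Cybb was not called without B1 (edgeR adjusted p 0.0641). Cyba, its membrane partner, did not pass (log2 fold change 0.55 ± 0.19 (SE), edgeR adjusted p = 0.228). Cd68, a lysosomal glycoprotein of phagocytes, read 18.6, 18.6, 19.4 and 21.4 ipsilaterally and 8.40, 11.6, 12.6 and 10.5 CPM contralaterally, without overlap. Cd68 rose by 0.86 ± 0.17 (SE, log2 scale, edgeR adjusted p = 0.00963). Cd68 was not called without A2 (edgeR adjusted p 0.0629) or without B1 (0.0576). Fcgr4, an activating receptor for IgG, read 0.937, 1.46, 0.973 and 1.81 ipsilaterally and 0, 0.255, 0.206 and 0 CPM contralaterally. Fcgr4 rose by 3.42 ± 0.66 (SE, log2 scale, edgeR adjusted p = 0.00844). Fcgr4 was not called without B1 (edgeR adjusted p 0.0674). Its log2 fold change was 4.08 without A3. Apoe, the lipid carrier that astrocytes also make and the most abundant gene of the list, did not pass. Apoe had a log2 fold change of -0.12 ± 0.09 (SE, edgeR adjusted p = 0.790, lower in 2 of 4 mice). The summed level of the list was 2548, 3227, 2643 and 3325 ipsilaterally and 2833, 2768, 2658 and 2640.0 CPM contralaterally, higher ipsilaterally in 2 of 4 mice.

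Markers of other leukocytes were low, and their part in the phagocyte result was not tested. Of the border macrophage markers, 2 of 15 tested members were upregulated (2 without A3, 1 without A2, 0 without A4, 0 without B1 and 0 without the mouse block), with a median of 0.31 (log2). Those that passed were Dab2, an endocytic adaptor (log2 fold change 0.87 ± 0.17 (SE), edgeR adjusted p = 0.0111), and Lyz2, the lysozyme of myeloid cells. Lyz2 rose by 0.86 ± 0.20 (SE, log2 scale, edgeR adjusted p = 0.0346). Dab2 was not called without the mouse block (edgeR adjusted p 0.651), without A4 (0.0518) or without B1 (0.0780). Lyz2 was not called without the mouse block (edgeR adjusted p 0.778), without A2 (0.130), without A4 (0.0726) or without B1 (0.233). Mrc1, the mannose receptor CD206 of these macrophages, read 3.44, 5.49, 3.54 and 3.79 ipsilaterally and 3.49, 3.82, 2.79 and 2.87 CPM contralaterally (log2 fold change 0.31 ± 0.22 (SE), edgeR adjusted p = 0.777, higher in 3 of 4 mice), and the scavenger receptor Stab1, the most abundant marker, did not pass. Stab1 had a log2 fold change of 0.25 ± 0.12 (SE, edgeR adjusted p = 0.512, higher in 3 of 4 mice). The summed level of the list was 60.7, 70.5, 64.7 and 70.03 ipsilaterally and 45.02, 58.1, 42.2 and 40.8 CPM contralaterally, without overlap between the hemispheres.

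Neutrophils are the first blood cells to enter an infarct. Of their markers, 1 of 12 tested members was upregulated (0 without A3, 0 without A4, 0 without B1 and 0 without the mouse block), with a median of 0.85 (log2), and the defining genes Ly6g, Elane and Stfa2l1 had no count in any of the 8 libraries. S100a9, a subunit of calprotectin, read 0.234, 1.29, 0.707 and 3.21 ipsilaterally and 0.0793, 0, 0 and 0.277 CPM contralaterally, so that A2 overlapped with the contralateral library of B1. S100a9 rose by 3.75 ± 0.81 (SE, log2 scale, edgeR adjusted p = 0.0229). S100a9 was not called without the mouse block (edgeR adjusted p 0.190), without A3 (0.148), without A4 (0.0590) or without B1 (0.202). Its partner S100a8 did not pass (edgeR adjusted p = 0.735). The summed level was 14.9, 14.5, 11.9 and 19.8 ipsilaterally and 15.5, 11.05, 8.46 and 11.7 CPM contralaterally, with Csf3r, the receptor of granulocyte colony-stimulating factor, as the most abundant gene. Of the monocyte markers, 0 of 12 tested members passed in edgeR (6 at an unadjusted p under 0.05, 0 called by DESeq2). Their median log2 fold change of 2.62 became 1.47 with genes at 0 in a hemisphere set to their bound, and the summed level, mostly the matrix gene Vcan, was 43.6, 43.7, 57.7 and 47.2 ipsilaterally and 50.2, 50.9, 42.9 and 36.6 CPM contralaterally. Of the lymphocyte markers, 0 of 12 tested members passed in edgeR (1 at an unadjusted p under 0.05, 0 called by DESeq2), with a median of 0.07 (log2) and no count for Ncr1 and Gzmb. Their summed level, mostly Cd4, which microglia and some neurons can also contribute, was 14.1, 33.9, 49.3 and 13.6 ipsilaterally and 8.48, 20.4, 59.2 and 22.3 CPM contralaterally.

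Complement opsonizes debris and synapses. Of its genes, 4 of 20 tested members were upregulated (3 without A3), with a median of 0.37 (log2). C4b, a component of the classical pathway made by reactive astrocytes, read 40.3, 54.7, 45.7 and 45.97 ipsilaterally and 25.5, 31.4, 20.01 and 26.3 CPM contralaterally. C4b rose by 0.86 ± 0.10 (SE, log2 scale, edgeR adjusted p = 4.20e-05). The receptors responded as well. C5ar1, for the attractant C5a, read 6.95, 8.83, 5.31 and 9.72 ipsilaterally and 1.74, 1.44, 0.825 and 1.02 CPM contralaterally (log2 fold change 2.59 ± 0.27 (SE), edgeR adjusted p = 1.09e-05), and C3ar1, for C3a, read 9.99, 8.49, 6.72 and 7.91 ipsilaterally and 2.38, 4.25, 3.30 and 2.31 CPM contralaterally. C3ar1 rose by 1.45 ± 0.24 (SE, log2 scale, edgeR adjusted p = 0.00203). Itgb2, the beta chain of complement receptor 3, rose by less (log2 fold change 0.84 ± 0.20 (SE), edgeR adjusted p = 0.0407). Itgb2 was not called without the mouse block (edgeR adjusted p 0.329), without A3 (0.275) or without B1 (0.282). C1qa and C1qb, subunits of the initiator of the classical pathway, were higher in every mouse by less than the threshold (log2 fold change 0.43 ± 0.07, SE, edgeR adjusted p = 0.00133 for C1qa, and 0.54 ± 0.08, SE, edgeR adjusted p = 6.70e-04 for C1qb). Without A4, C1qb passed the threshold (log2 fold change 0.61).

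Of the MHC class II genes, which present antigen to T helper cells, 1 of 9 tested members was upregulated (1 without A3 and 0 without the mouse block), with a median of 0.22 (log2). The member that passed was Cd74, the invariant chain, which read 5.62, 12.4, 9.11 and 16.1 ipsilaterally and 3.17, 6.63, 3.51 and 2.96 CPM contralaterally, with overlap between A2 ipsilaterally and A3 contralaterally. Cd74 rose by 1.37 ± 0.24 (SE, log2 scale, edgeR adjusted p = 0.00301). Cd74 was not called without the mouse block (edgeR adjusted p 0.512). Of the interferon-stimulated genes, 4 of 38 tested members were upregulated (3 without A3, 2 without A4 and 2 without B1), with a median of 0.57 (log2), and 20 of them were at an unadjusted p under 0.05. Ifitm3, a membrane protein that restricts viral entry, read 13.4, 23.7, 16.4 and 26.2 ipsilaterally and 8.64, 9.60, 7.12 and 8.69 CPM contralaterally. Ifitm3 rose by 1.19 ± 0.14 (SE, log2 scale, edgeR adjusted p = 7.40e-05). Gbp2, a guanylate-binding protein, read 6.32, 10.3, 7.43 and 12.03 ipsilaterally and 3.33, 2.63, 2.89 and 2.03 CPM contralaterally. Gbp2 rose by 1.69 ± 0.29 (SE, log2 scale, edgeR adjusted p = 0.00294).

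Leukocytes leave the blood by rolling on selectins and binding to integrin ligands. Of the adhesion molecules, 4 of 20 tested members were upregulated (3 without A3, 2 without B1 and 1 without the mouse block), with a median of 0.31 (log2). Selp, the P-selectin of activated endothelium and platelets, had no contralateral count and read 0, 1.46, 0.973 and 1.40 CPM ipsilaterally, at least 14.3-fold above the floor on average and at 0 in A2 (edgeR adjusted p = 0.00483, 0.181 without the mouse block, higher in 3 of 4 mice). This was at least 8.73-fold without A3 and 9.20-fold without B1. Itga5, the fibronectin receptor chain, read 11.2, 11.5, 19.3 and 13.5 ipsilaterally and 3.25, 7.39, 15.3 and 4.72 CPM contralaterally, with a high contralateral level in A4 that overlapped. Itga5 rose by 0.997 ± 0.20 (SE, log2 scale, edgeR adjusted p = 0.0129). Itga5 was not called without the mouse block (edgeR adjusted p 0.640), without A2 (0.0856) or without B1 (0.0940). Icam1, the endothelial ligand of leukocyte integrins, read 4.37, 5.14, 4.78 and 12.03 ipsilaterally and 1.98, 3.74, 2.89 and 2.68 CPM contralaterally, highest in B1, and did not pass. Icam1 had a log2 fold change of 1.14 ± 0.29 (SE, edgeR adjusted p = 0.0617). Vcam1, the ligand of the integrin VLA-4, was nearly even (log2 fold change 0.04 ± 0.11 (SE), edgeR adjusted p = 0.980, higher in 3 of 4 mice).

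Of the blood-brain barrier markers, 1 of 21 tested members was upregulated (0 without A3, 2 without A4, 0 without B1 and 0 without the mouse block), with a median of 0.09 (log2). The member that passed was Cdh5, VE-cadherin of endothelial junctions (log2 fold change 0.65 ± 0.14 (SE), edgeR adjusted p = 0.0191). Cdh5 was not called without the mouse block (edgeR adjusted p 0.225), without A3 (0.125) or without B1 (0.187). Of the angiogenic genes, 3 of 22 tested members were upregulated (2 without A3, 1 without A2, 0 without B1 and 0 without the mouse block), with a median of 0.27 (log2). Angpt2, a destabilizing ligand of the receptor Tie2, read 5.39, 7.63, 3.10 and 16.5 ipsilaterally and 3.41, 1.87, 0.928 and 3.88 CPM contralaterally, highest in B1 and with overlap. Angpt2 rose by 1.61 ± 0.28 (SE, log2 scale, edgeR adjusted p = 0.00303). Angpt2 was not called without the mouse block (edgeR adjusted p 0.376) or without B1 (0.0534). Of the mural cell and fibroblast markers, 0 of 16 tested members passed in edgeR (2 at an unadjusted p under 0.05, 0 called by DESeq2) and 1 passed without A3, with a median of 0.00 (log2). Of the prostaglandin and leukotriene genes, 0 of 21 tested members passed in edgeR (4 at an unadjusted p under 0.05, 0 called by DESeq2) and 1 passed without A3, with a median of 0.12 (log2). Ptgs2, the inducible cyclooxygenase COX-2, read 22.3, 15.2, 14.9 and 42.3 ipsilaterally and 12.05, 11.9, 6.40 and 9.16 CPM contralaterally, higher in every mouse without overlap, and did not pass. Ptgs2 had a log2 fold change of 1.17 ± 0.29 (SE, edgeR adjusted p = 0.0554). Without A3 its edgeR adjusted p was 0.0441. It was 0.636 without the mouse block, 0.0923 without A2, 0.119 without A4 and 0.396 without B1 (log2 fold change 0.79 without B1). With DESeq2 the adjusted p was 0.324.

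**Figure D2:**
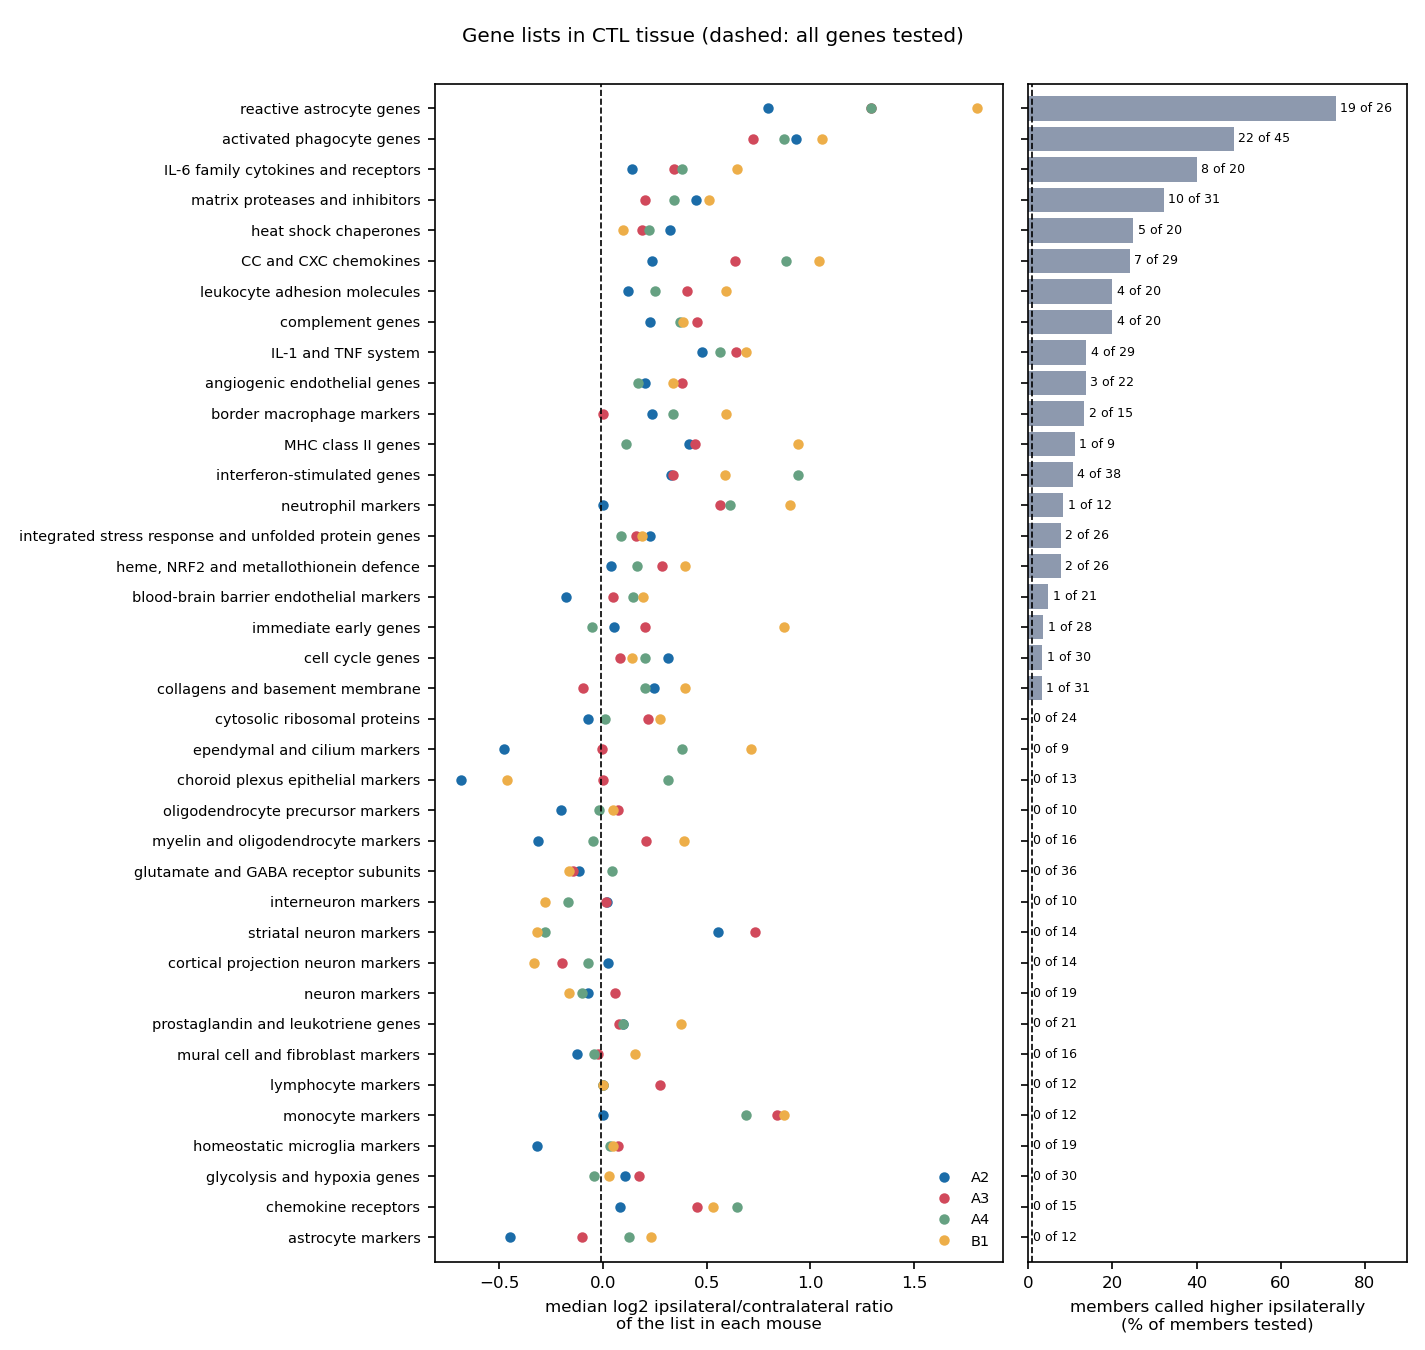
Left, median log2 ratio of ipsilateral to contralateral CPM over the tested members of the gene lists shown, with 1 colored point per CTL mouse, and right, the percentage of tested members called higher ipsilaterally, with dashed lines for all genes tested. Reactive astrocyte genes had the largest share (19 of 26), among lists chosen with earlier results of these data known. Astrocyte, neuron and myelin markers had 0 members called higher in edgeR.

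Genes that fell were few and of mixed function. Besides P2ry12, they were Rxfp1, Nat8f1, Cited4, Plk5, Miat and Ddit4l, and each was lower in 4 of 4 mice. Rxfp1, the receptor of relaxin, read 8.43, 5.66, 8.40 and 6.26 ipsilaterally and 11.3, 13.9, 9.80 and 14.8 CPM contralaterally, without overlap and with small differences in A2 and A4. Rxfp1 fell by 0.79 ± 0.17 (SE, log2 scale, edgeR adjusted p = 0.0238). Nat8f1, of the N-acetyltransferase 8 family, read 3.51, 5.32, 4.51 and 5.60 ipsilaterally and 8.09, 9.60, 9.28 and 7.49 CPM contralaterally. Nat8f1 fell by 0.87 ± 0.19 (SE, log2 scale, edgeR adjusted p = 0.0241). Plk5, a neuronal polo-like kinase, read 10.7, 17.6, 22.7 and 13.2 ipsilaterally and 19.1, 22.9, 28.99 and 32.4 CPM contralaterally, with overlap between mice. Plk5 fell by 0.71 ± 0.17 (SE, log2 scale, edgeR adjusted p = 0.0406). Miat, a long noncoding RNA of neurons, read 108, 96.7, 117 and 87.1 ipsilaterally and 152, 185, 123 and 158 CPM contralaterally and was nearly even in A4. Miat fell by 0.59 ± 0.14 (SE, log2 scale, edgeR adjusted p = 0.0460). Ddit4l, an inhibitor of mTOR signaling, read 14.8, 14.5, 16.4 and 12.1 ipsilaterally and 22.04, 21.7, 24.7 and 21.1 CPM contralaterally, a similar fall in each mouse. Ddit4l fell by 0.63 ± 0.15 (SE, log2 scale, edgeR adjusted p = 0.0490). Cited4, a transcriptional coactivator, overlapped between the hemispheres (log2 fold change -0.69 ± 0.16 (SE), edgeR adjusted p = 0.0397). None of the 6 kept the call without the mouse block or without A3. Rxfp1 was not called without the mouse block (edgeR adjusted p 0.303), without A3 (0.206) or without B1 (0.198). Nat8f1 was not called without the mouse block (edgeR adjusted p 0.0733), without A2 (0.141), without A3 (0.113) or without A4 (0.113). Cited4 was not called without the mouse block (edgeR adjusted p 0.602), with DESeq2 (0.0593), without A2 (0.0674), without A3 (0.0893), without A4 (0.127) or without B1 (0.262). Plk5 was not called without the mouse block (edgeR adjusted p 0.621), without A2 (0.138), without A3 (0.0630) or without B1 (0.311). Miat was not called without the mouse block (edgeR adjusted p 0.607), with DESeq2 (0.260), without A2 (0.0916), without A3 (0.334) or without B1 (0.237). Ddit4l was not called without the mouse block (edgeR adjusted p 0.276), without A2 (0.122), without A3 (0.165), without A4 (0.122) or without B1 (0.212).

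Without the fold change threshold, 34 genes were lower at an edgeR adjusted p under 0.05, with a median log2 fold change of -0.45, beside 216 higher. Cadps2, a priming factor of dense-core vesicle release, read 82.7, 78.5, 79.9 and 66.9 ipsilaterally and 109.5, 101, 109 and 126 CPM contralaterally, without overlap. Cadps2 had a log2 fold change of -0.53 ± 0.10 (SE, edgeR adjusted p = 0.00524). Camkk2, a calcium-dependent kinase that activates AMPK, read 159, 189, 286 and 154 ipsilaterally and 218, 234, 349 and 271 CPM contralaterally, with overlap because A4 was high in both hemispheres. Camkk2 had a log2 fold change of -0.46 ± 0.09 (SE, edgeR adjusted p = 0.0101). Others of low p, Aifm3, Akap8l, Ighm, Tmem44, Rnf112 and Crocc, had log2 fold changes between -0.51 for Tmem44 and -0.33 for Rnf112 (edgeR adjusted p between 0.00689 for Aifm3 and 0.0166 for Crocc). Tmem44 was called lower without A4 (log2 fold change -0.60, edgeR adjusted p 0.00828). Without the mouse block the edgeR adjusted p of all these genes, Cadps2 and Camkk2 included, lay between 0.180 for Aifm3 and 0.926 for Crocc. Leaving out A3 gave 0.0692 for Aifm3, 0.129 for Akap8l, 0.143 for Rnf112 and 0.123 for Crocc. Of these genes only Cadps2 stayed under 0.05 without each single mouse. Lamp5, a marker of cortical neurons, read 97.8, 146, 160.1 and 90.8 ipsilaterally and 155, 168, 204 and 187 CPM contralaterally and came close to the threshold. Lamp5 had a log2 fold change of -0.56 ± 0.13 (SE, edgeR adjusted p = 0.0407). Without A3, Lamp5 was called lower (log2 fold change -0.68, edgeR adjusted p 0.0361). The edgeR adjusted p of Lamp5 was 0.695 without the mouse block, 0.143 without A2, 0.0544 without A4 and 0.273 without B1. With DESeq2 it was 0.211.

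Neuronal lists had no member called with all mice, and the sums of the pan-neuronal and cortical lists were lower on the lesioned side. Of the pan-neuronal markers, 0 of 19 tested members passed in edgeR (1 at an unadjusted p under 0.05, 0 called by DESeq2), with a median of -0.04 (log2). Their summed level was 15943, 16112, 16782 and 16054 ipsilaterally and 17556, 16385, 17646 and 18031 CPM contralaterally, lower ipsilaterally in 4 of 4 mice by a small amount. Camk2a was the most abundant of them, with 18.9% of the list's counts (log2 fold change -0.31 ± 0.08 (SE), edgeR adjusted p = 0.0943). In A3 it read 2659 ipsilaterally and 3402 CPM contralaterally, a wider gap than that of the whole sum. The median log2 ratio of the list was -0.07, 0.06, -0.10 and -0.16 in A2, A3, A4 and B1, so it was not lower in A3. Of the cortical projection neuron markers, 0 of 14 tested members passed in edgeR (4 at an unadjusted p under 0.05, 0 called by DESeq2), with a median of -0.09 (log2) and a summed level lower in 4 of 4 mice (2382, 2113, 2328 and 2140.1 ipsilaterally and 2423, 2192, 2465 and 2572 CPM contralaterally). Without A3, 1 of these was called lower. Slc17a7, the vesicular glutamate transporter of these neurons, did not pass (log2 fold change -0.04 ± 0.06 (SE), edgeR adjusted p = 0.935, lower in 2 of 4 mice). Of the glutamate and GABA receptor subunits, 0 of 36 tested members passed in edgeR (6 at an unadjusted p under 0.05, 0 called by DESeq2), with a median of -0.10 (log2). Their sums were 6565, 5896, 7252 and 6383 ipsilaterally and 7132, 6617, 7172 and 6795 CPM contralaterally, higher ipsilaterally in A4 and lower in the other mice. Of the interneuron markers, 0 of 10 tested members passed in edgeR (3 at an unadjusted p under 0.05, 0 called by DESeq2), with a median of -0.07 (log2) and Cck as the most abundant gene. Their sums were 817, 821, 724 and 764 ipsilaterally and 793, 789, 797 and 799 CPM contralaterally, higher ipsilaterally in A2 and A3 and lower in A4 and B1.

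A few neuronal genes rose. Nptx2, a secreted pentraxin that clusters AMPA receptors, read 172, 221, 81.6 and 127 ipsilaterally and 73.6, 55.2, 57.9 and 80.2 CPM contralaterally, without overlap and with the largest difference in A3. Nptx2 rose by 1.10 ± 0.19 (SE, log2 scale, edgeR adjusted p = 0.00318). Nptx2 was not called without the mouse block (edgeR adjusted p 0.154). Wfs1, a protein of the endoplasmic reticulum abundant in some cortical, striatal and hippocampal neurons, read 352, 368, 323 and 261 ipsilaterally and 188, 176, 333 and 172 CPM contralaterally. It was higher in A2, A3 and B1 and not in A4, whose contralateral library was far above the others. Wfs1 rose by 0.63 ± 0.13 (SE, log2 scale, edgeR adjusted p = 0.0178, higher in 3 of 4 mice). Wfs1 was not called without the mouse block (edgeR adjusted p 0.683), with DESeq2 (0.113), without A2 (0.114) or without A3 (0.187). Of the cell cycle genes, 1 of 30 tested members was upregulated (1 without A3), with a median of 0.25 (log2). The member that passed was the cell cycle inhibitor Cdkn1a, which read 63.1, 68.1, 44.9 and 66.7 ipsilaterally and 35.99, 34.4, 33.6 and 39.9 CPM contralaterally (log2 fold change 0.74 ± 0.11 (SE), edgeR adjusted p = 9.80e-04), and no other gene of the list was called. Of the cytosolic ribosomal protein genes, 0 of 24 tested members passed in edgeR (3 at an unadjusted p under 0.05, 0 called by DESeq2), with a median of 0.09 (log2).

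Summed levels of regional markers differed between the mice and, in some, between the hemispheres, and the cause was not tested. The summed striatal neuron markers were 1205, 2510.2, 4053 and 1179 ipsilaterally and 857, 1626, 5020.0 and 1328 CPM contralaterally. A4 held several times the level of A2 and B1 in both hemispheres, and the ipsilateral sum was higher in A2 and A3 and lower in A4 and B1. Of these markers, 0 of 14 tested members passed in edgeR (0 at an unadjusted p under 0.05, 0 called by DESeq2), with a median of 0.14 (log2) and Adcy5 as the most abundant. The choroid plexus markers, with the transthyretin gene Ttr as the most abundant gene, summed to 289, 4017, 266 and 809 ipsilaterally and 390.1, 3762, 298 and 1297 CPM contralaterally, high in both hemispheres of A3, intermediate in B1 and low in A2 and A4. Ttr itself read 26.7, 2387, 2.12 and 313 ipsilaterally and 58.3, 2153, 0.928 and 619 CPM contralaterally (log2 fold change -0.55 ± 0.67 (SE), edgeR adjusted p = 0.913, lower in 2 of 4 mice), and of the list 0 of 13 tested members passed in edgeR (0 at an unadjusted p under 0.05, 0 called by DESeq2), with a median of -0.25 (log2).

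Myelin markers also shifted with the animal. Their sum was 7516, 10565, 6275 and 12706 ipsilaterally and 9823, 9419, 6418 and 8401 CPM contralaterally, higher ipsilaterally in A3 and B1 and lower in A2 and A4. Of them, 0 of 16 tested members passed in edgeR (1 at an unadjusted p under 0.05, 0 called by DESeq2), with a median of 0.08 (log2), and the myelin basic protein gene Mbp read 2159, 3123, 1947 and 4214 ipsilaterally and 3179, 2951, 1995 and 2399 CPM contralaterally. Mbp had a log2 fold change of 0.07 ± 0.13 (SE, edgeR adjusted p = 0.954, higher in 2 of 4 mice). Trf, the transferrin of oligodendrocytes, had an edgeR adjusted p of 0.0453 at a log2 fold change of 0.41 ± 0.10 (SE), below the threshold. The edgeR adjusted p of Trf was 0.841 without the mouse block, 0.308 without A3 and 0.301 without B1. Of the oligodendrocyte precursor markers, 0 of 10 tested members passed in edgeR (0 at an unadjusted p under 0.05, 0 called by DESeq2), with a median of -0.07 (log2) and Sox10 as the most abundant gene. Of the ependymal and cilium markers, 0 of 9 tested members passed in edgeR (0 at an unadjusted p under 0.05, 0 called by DESeq2), with a median of 0.10 (log2) and Foxj1 as the most abundant gene. The part of these regional shifts in the results above was not tested.

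**Figure D3:**
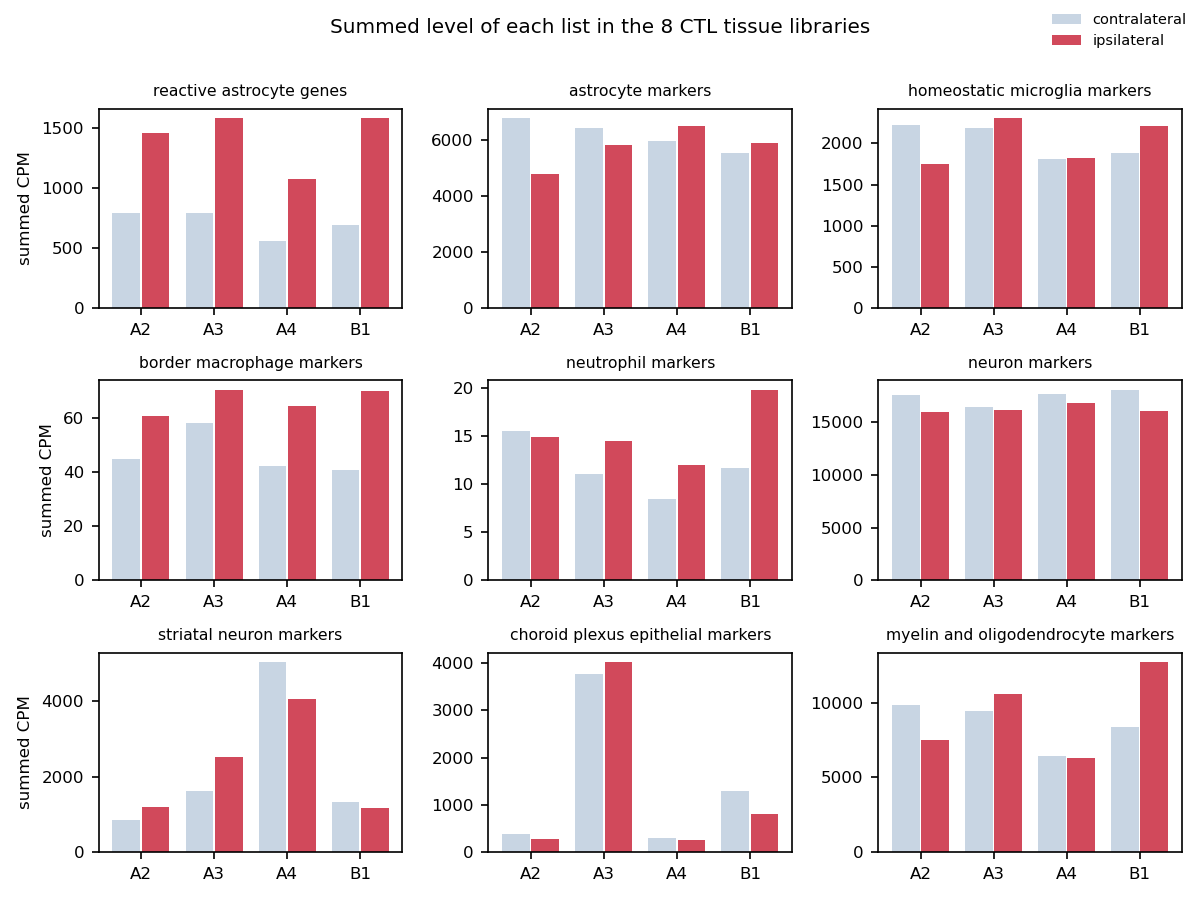
Summed CPM of 9 marker and state lists (linear axes from 0) in the contralateral (light) and ipsilateral (red) library of each CTL mouse, 1 bar per library. Reactive astrocyte genes were higher ipsilaterally in all 4 mice (1457 against 795 CPM in A2), and striatal markers were highest in both hemispheres of A4 (4053 and 5020.0 CPM).

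The lists held 94 of the 178 upregulated genes, and 84 lay outside them. Tagln2, a transgelin that binds actin, read 29.8, 33.3, 19.5 and 32.4 ipsilaterally and 10.5, 14.3, 9.80 and 11.8 CPM contralaterally. Tagln2 rose by 1.30 ± 0.11 (SE, log2 scale, edgeR adjusted p = 1.18e-06). Sbno2, a transcriptional coregulator, read 34.4, 46.99, 42.1 and 54.4 ipsilaterally and 17.5, 21.7, 19.3 and 21.1 CPM contralaterally (log2 fold change 1.15 ± 0.11 (SE), edgeR adjusted p = 2.71e-06), and Igfbp7, a secreted protein of vessels, read 43.02, 60.3, 42.9 and 62.9 ipsilaterally and 26.7, 33.9, 22.7 and 29.04 CPM contralaterally. Igfbp7 rose by 0.89 ± 0.09 (SE, log2 scale, edgeR adjusted p = 1.09e-05). All 3 rose in each mouse by a similar factor and without overlap. Plin2, which coats lipid droplets, read 11.1, 12.1, 10.2 and 13.1 ipsilaterally and 5.71, 4.67, 4.95 and 5.09 CPM contralaterally. Plin2 rose by 1.18 ± 0.15 (SE, log2 scale, edgeR adjusted p = 1.56e-04). A pair of metabolite receptors of myeloid cells was also induced. Hcar2, the receptor of hydroxybutyrate and niacin, had 45 ipsilateral and 1 contralateral count, in A3, a ratio of 42.2 (exact 95% counting interval 7.19 to 1702) at an edgeR adjusted p of 0.00132. Without A3 it lay at least 10.6-fold above the floor (edgeR adjusted p 0.00588). Gpr84, a receptor of medium-chain fatty acids, read 2.26, 2.32, 2.30 and 3.38 ipsilaterally and 0.555, 0.935, 0.309 and 0.740 CPM contralaterally, with even ipsilateral levels. Gpr84 rose by 1.995 ± 0.34 (SE, log2 scale, edgeR adjusted p = 0.00301). Pilra, an inhibitory receptor of myeloid cells with 56 ipsilateral and 3 contralateral counts, all in A2, had a ratio of 17.5 (exact 95% counting interval 5.68 to 87.4) at an edgeR adjusted p of 0.0256. Pilra was not called without A3 (edgeR adjusted p 0.165), without A4 (0.0688) or without B1 (0.211). Without B1 the ratio was 9.84 (3.07 to 50.3), and without A2 Pilra lay at least 15.2-fold above the floor (edgeR adjusted p 0.00362).

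The study singled out a set of genes for this tissue on these same libraries, so their direction is not independent evidence. Of these, 12 of 24 tested members were upregulated (12 without A3) and 1 was downregulated, with a median of 1.56 (log2), and the remaining 11 did not pass. Without A3, Cd72 lost its call and Ptgs2 gained one. Cd72, a lectin-like receptor of B cells and activated microglia, rose in each mouse (log2 fold change 2.02 ± 0.42 (SE), edgeR adjusted p = 0.0146). Cd72 was not called without the mouse block (edgeR adjusted p 0.0679), without A2 (0.0988) or without A3 (0.0938). Besides those given above, the genes that did not pass were Itgax, the integrin CD11c, which read 0.859, 0.772, 1.41 and 1.89 ipsilaterally and 0.476, 0.170, 0.413 and 0.185 CPM contralaterally (log2 fold change 1.90 ± 0.48 (SE), edgeR adjusted p = 0.0568), and Cxcl16, a transmembrane chemokine. Cxcl16 had a log2 fold change of 1.22 ± 0.34 (SE, edgeR adjusted p = 0.113). Nlrp3, the inflammasome sensor, was higher in each mouse (log2 fold change 1.18 ± 0.34 (SE), edgeR adjusted p = 0.124). Spi1, the myeloid transcription factor PU.1, was nearly even in A2 and higher in the other mice. Spi1 had a log2 fold change of 0.71 ± 0.20 (SE, edgeR adjusted p = 0.124). Without A2, Itgax and Spi1 were called higher (edgeR adjusted p 0.0481 and 0.0418), and without the mouse block Itgax was (0.0469). For Itgax and Spi1 the edgeR adjusted p was 0.175 and 0.356 without A3, 0.132 and 0.315 without A4, and 0.411 and 0.487 without B1. With DESeq2 it was 0.0977 and 0.244. Plau, the urokinase, was higher in each mouse (log2 fold change 0.89 ± 0.31 (SE), edgeR adjusted p = 0.269). Col5a2, a fibrillar collagen chain (log2 fold change 0.39 ± 0.25 (SE), edgeR adjusted p = 0.735, higher in 3 of 4 mice), and Cd36, a fatty acid and scavenger receptor (log2 fold change 0.18 ± 0.48 (SE), edgeR adjusted p = 0.977, higher in 3 of 4 mice), overlapped between the hemispheres.

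BLZ945 mice served as the only other group with the same stroke and tissue. In them 378 genes (1.99%) were upregulated and 36 downregulated in the same model, and 164 of the 178 genes upregulated in CTL mice were among them. A larger count in 1 group does not show a different response, so the difference of both responses was tested for each gene. In edgeR 0 genes (0%) passed, with 451 of 18968 at an unadjusted p under 0.05, and in DESeq2 0 passed, with 167 at an unadjusted p under 0.05. Without a filter on low counts 22 passed in edgeR. Osmr had a log2 fold change of 2.14 ± 0.13 (SE) in CTL and 2.56 ± 0.13 (SE) in BLZ945 mice, a difference of 0.42 ± 0.19 (SE, edgeR adjusted p = 1.000). For Gfap the values were 1.62 ± 0.12 and 1.89 ± 0.12 (SE), and for Hmox1 2.79 ± 0.17 and 3.06 ± 0.17 (SE), with an edgeR adjusted p of the difference of 1.000 for Gfap and 1.000 for Hmox1. P2ry12 fell by 0.72 ± 0.11 (SE) on the log2 scale in CTL mice and had a log2 fold change of -0.70 ± 0.12 (SE) in BLZ945 mice (edgeR adjusted p of the difference = 1.000). Leaving out C3 or C4 gave 1 gene with a different response, and leaving out any other mouse gave 0 in edgeR.

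Promoter sequences are shown for upregulated genes of the groups above that were chosen by hand. Each holds a motif of a stress- or cytokine-responsive factor in the 250 bases before the start of transcription. Genes without a match were not shown, and a joint rise of the genes shown was not assessed. Sequences are those of RefSeq on the GRCm38.p6 build, 5′ to 3′ on the strand of the gene, and 142 of the 178 upregulated genes had an entry. Motifs were searched on both strands from 250 bases before to 50 bases after each start, and a match is a description, not a site or a cause. The AP-1 letters TGANTCA, which read alike on both strands as do those of STAT and of the heat shock element, were found in 17.5% of the 177 promoters of upregulated genes, 5.88% of the promoters of all genes tested and 7.81% of all 32851 promoters. For the STAT letters TTCNNNGAA the shares were 10.7%, 6.87% and 8.3%. For the NF-kB letters GGG, any 2 bases and TTTCC, or their reverse complement, they were 5.08%, 1.68% and 1.63%. For the heat shock element GAANNTTC they were 6.78%, 6.14% and 7.86%, and for the antioxidant response element TGACNNNGC or its reverse complement 13%, 13.9% and 12.4%. The shares carry no test.

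The metalloproteinase genes Mmp3 (chr9:7445572-7445821, plus strand) and Mmp12 (chr9:7347124-7347373, plus strand), both at or near 0 contralaterally, each hold the AP-1 letters, in capitals, close to the start.
Mmp3: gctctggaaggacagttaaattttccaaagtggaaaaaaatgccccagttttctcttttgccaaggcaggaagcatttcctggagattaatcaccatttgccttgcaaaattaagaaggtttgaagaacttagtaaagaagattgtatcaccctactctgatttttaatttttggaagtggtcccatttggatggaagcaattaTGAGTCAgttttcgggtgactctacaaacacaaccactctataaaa
Mmp12: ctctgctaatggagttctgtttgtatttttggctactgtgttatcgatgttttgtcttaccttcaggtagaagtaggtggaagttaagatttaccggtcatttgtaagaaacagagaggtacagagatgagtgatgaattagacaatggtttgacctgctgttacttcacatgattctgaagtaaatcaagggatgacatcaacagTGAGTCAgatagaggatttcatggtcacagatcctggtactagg

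Socs3 (chr11:117969367-117969616, minus strand), the feedback gene of STAT3 signaling, and Tgm1 (chr14:55713493-55713742, minus strand), which had the largest induction of the transglutaminases, hold the STAT letters in capitals.
Socs3: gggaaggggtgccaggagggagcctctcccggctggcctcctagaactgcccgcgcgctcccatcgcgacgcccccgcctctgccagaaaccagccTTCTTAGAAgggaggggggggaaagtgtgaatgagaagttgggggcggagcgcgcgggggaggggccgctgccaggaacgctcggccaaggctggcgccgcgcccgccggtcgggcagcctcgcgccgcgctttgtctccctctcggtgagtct
Tgm1: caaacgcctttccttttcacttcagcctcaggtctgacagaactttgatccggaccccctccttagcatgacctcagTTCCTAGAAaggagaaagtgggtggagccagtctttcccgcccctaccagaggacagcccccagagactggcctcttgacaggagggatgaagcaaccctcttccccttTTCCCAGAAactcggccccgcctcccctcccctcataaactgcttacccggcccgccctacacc

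Serpina3n (chr12:104406458-104406707, plus strand) and Vim (chr2:13574061-13574310, plus strand) of the reactive astrocyte list hold the NF-kB letters in capitals.
Serpina3n: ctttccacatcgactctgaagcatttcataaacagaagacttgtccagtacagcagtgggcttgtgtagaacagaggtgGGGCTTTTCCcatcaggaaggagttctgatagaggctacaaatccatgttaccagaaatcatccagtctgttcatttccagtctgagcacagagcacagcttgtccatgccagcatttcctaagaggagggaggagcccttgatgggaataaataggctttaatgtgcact
Vim: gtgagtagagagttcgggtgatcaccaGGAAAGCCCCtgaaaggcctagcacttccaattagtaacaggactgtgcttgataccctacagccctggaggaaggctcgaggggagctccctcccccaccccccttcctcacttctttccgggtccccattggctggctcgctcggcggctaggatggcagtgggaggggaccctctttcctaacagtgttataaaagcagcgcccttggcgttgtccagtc

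The chaperone genes Hspa1a (chr17:34972157-34972406, minus strand) and Hspb1 (chr5:135887669-135887918, plus strand) hold the letters of the heat shock element in capitals.
Hspa1a: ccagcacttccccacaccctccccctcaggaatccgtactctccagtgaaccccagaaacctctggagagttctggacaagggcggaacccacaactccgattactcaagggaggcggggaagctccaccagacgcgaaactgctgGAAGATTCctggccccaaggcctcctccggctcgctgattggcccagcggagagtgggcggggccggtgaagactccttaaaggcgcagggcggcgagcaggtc
Hspb1: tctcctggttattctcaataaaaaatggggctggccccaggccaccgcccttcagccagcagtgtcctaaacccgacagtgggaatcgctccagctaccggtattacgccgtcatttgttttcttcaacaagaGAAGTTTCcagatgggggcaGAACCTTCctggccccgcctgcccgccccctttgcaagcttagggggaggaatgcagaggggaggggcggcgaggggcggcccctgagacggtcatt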

How the data were processed

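RNA from both hemispheres of 8 mice was sequenced in 16 tissue libraries, 8 of them from CTL mice. Per the labels, the authors demultiplexed reads with bcl2fastq, aligned them with STAR and deposited integer gene counts from featureCounts, and genes are named by symbol because the labels leave the genome build unclear. From these counts, edgeR 4.0.16 in R 4.3.3 fitted genes with at least 8 counts over the 16 libraries, using TMM scaling, quasi-likelihood tests, the mouse as a block and a hemisphere effect per treatment. The pairing comes from the mouse names in the labels. As a check, deviations of both hemispheres of a mouse from their group means correlated at 0.375 in A2, 0.498 in A3, 0.645 in A4 and 0.346 in B1, and between -0.450 and 0.279 for hemispheres of different CTL mice, over 14317 genes with a mean of at least 1 CPM. In the BLZ945 mice of the same fit, the range was 0.214 to 0.640 within a mouse and -0.578 to 0.512 between mice, so both overlapped. Centering on group means by itself lowers the values between mice. P values were adjusted by Benjamini and Hochberg, and in simulated data edgeR recovered 84 of 100 genes changed by 1 and 100 of 100 changed by 2 on the log2 scale, with 3 false calls. The simulated counts followed the fitted dispersion trend without a spread of each gene's own, and genes of few counts were not changed. These figures therefore do not cover genes with few counts or with strong differences between mice.

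Genes were named by rule, with a few left out: the 15 largest called log2 fold changes per direction among genes with a mean of at least 1 CPM that moved alike in 4 mice, the 10 called genes with the most counts, up to 5 called members of lowest p and the most abundant gene of each list, genes that the study names, and, as few genes fell, the 10 of lowest p among the lower ones. The members and the gene lists were chosen with earlier results of these data known. Alternatives were a fit without the block, DESeq2 1.42.0, its size factors, other count filters, A3 by its column letters, CTL libraries alone, other fold change thresholds and leaving out each mouse. Sorted-cell libraries were not used here.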

Additional observations from a re-analysis of the deposited data

Results flagged for a closer look

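In 81 groups of 4 values, mostly the libraries of 1 hemisphere for a named gene with at least 40 counts, a value far from the other 3 was found 6 times, where chance, at about 1 in 20 groups, gives 4.05. These groups did not hold every named gene, so 6 against 4.05 covers them alone and gives no rate over all named genes. In the ipsilateral hemisphere, B1 was highest for Mmp12 (8.65 CPM, others 2.34 to 3.27), Ccl3 (4.70 CPM, others 1.41 to 1.86), Cybb (3.54 CPM, others 1.33 to 1.46) and Icam1 (12.03 CPM, others 4.37 to 5.14). In the contralateral hemisphere, Wfs1 was highest in A4 (333 CPM, others 172 to 188), and Plau was lowest in A3 (0.935 CPM, others 1.85 to 1.98). Of these 6 values, 4 belonged to B1, which is no count over all named genes. Among values not flagged, B1 was also far highest ipsilaterally for Atf3 (21.3 CPM, others 6.48 to 7.55) and Ccl9 (20.4 CPM, others 3.67 to 5.32). A3 was far highest contralaterally for Atf3 (5.44 CPM, others 1.57 to 2.06). Fos (129.8 CPM, others 13.8 to 29.9) and Npas4 (177 CPM, others 7.03 to 19.9) were likewise far highest ipsilaterally in B1. Such further values were not counted.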

How the results depend on the processing

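The main settings gave 178 higher, 7 lower and 0 differently responding genes. Without the mouse block 84 were higher and 0 lower, with A3 by its column letters 0 and 0, and 112 and 0 with a log2 fold change beyond 1. Counts of lower genes were 21 without a filter on low counts, 3 with filterByExpr, 13 with CTL libraries only and 34 without a fold change threshold, and the filters and thresholds act by their construction on the number of genes tested or called. Leaving out 1 CTL mouse gave between 111 (without B1) and 160 (without A4) higher and between 3 (without A2 or A3) and 16 (without A4) lower genes. The difference of responses was 22 genes without a filter, and between 0 and 1 when 1 mouse of either treatment was left out. For the block, the column letters, the CTL libraries and the left-out mice the cause was not tested. The other counts stayed within 1.5 times the main count.

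Of the 130 genes named by rule, 73 were called. None of these turned in direction under any setting, and 44 kept the call without each single mouse while 29 lost it without at least 1. The call was lost by 33 named genes without the block, which added 1 and changed no other call, 6 with DESeq2, 1 with its size factors, 9 with filterByExpr and 73 with the column letters of A3.

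The 4 mice per group, 1 of them with disagreeing labels, limit which small differences pass. Levels under 3 counts in a library are known only within wide bounds. Cell numbers were not measured, so shares of cell types behind any value were not tested.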
